A study of Mus musculus with 30 samples.

Results

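Chromatin accessibility was compared between epiblast stem cells (EpiSCs) of 2 inbred mouse strains, PWK/PhJ and C57BL/6 (B6), over every peak of the deposited table of ATAC-seq read counts. The comparison used 6 of the 30 samples of the series: 2 PWK libraries, 1 named AC698 in the table and 1 whose column name matches no sample number (here the unnumbered library), and 4 B6 libraries, numbered 1, 4, 44 and 51. The table lists 181059 peaks, and 137667 of them held enough counts to be tested. Per the labels, all lines were untreated, between passages 5 and 10, and grown on feeder cells in a medium with Fgf2, Activin A and a tankyrase inhibitor that blocks Wnt signalling. Colonies were lifted with collagenase to leave feeders behind, and 20000 or 40000 cells were transposed per library. RNA-seq libraries of the same strains (5 B6, 3 PWK) and 1 ATAC-seq library of a DBA line, which has no replicate, were used as further readouts; the DBA library also entered 1 of the alternative fits.

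EpiSCs are pluripotent cells of the post-implantation epiblast, in the state called primed, in which Fgf and Activin or Nodal signalling maintain Pou5f1, Sox2, Otx2 and Fgf5. ATAC-seq uses the Tn5 transposase to cut and tag open DNA, so the read count of a peak reports how accessible that region is, at promoters and at distal elements such as enhancers. PWK/PhJ is a wild-derived strain of the Mus musculus musculus subspecies, and C57BL/6 is a classical laboratory strain largely of Mus musculus domesticus origin, so their genomes differ at many more positions than those of any pair of classical strains. The mm10 build, named in the submitters' processing notes for both strains, is the C57BL/6J genome: accessibility and the match of reads to that build cannot be told apart by strain in these counts.

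Promoter peaks were taken by smallest p among called peaks without overlap between the strains. Gene model names such as Gm or Rik were left out. The first lay at Zfp932, Zfp811 and Akr1e1 (lower in PWK) and, among those that overlap the printed window, at Ccdc8 and Acy3 (higher in PWK). The RefSeq sequences of these starts (GRCm38.p6, 250 bases before to 50 after the start, 5′ to 3′ on the gene's strand) are shown so that their composition can be read beside the values. Capitals mark matches to a motif searched on both strands. They lie at chr5:109996277-109996576 on the plus strand (Zfp932), chr17:32809882-32810181 on the minus strand (Zfp811), chr13:4609115-4609414 on the minus strand (Akr1e1), chr7:16993652-16993951 on the plus strand (Ccdc8) and chr19:3986320-3986619 on the plus strand (Acy3).
Zfp932: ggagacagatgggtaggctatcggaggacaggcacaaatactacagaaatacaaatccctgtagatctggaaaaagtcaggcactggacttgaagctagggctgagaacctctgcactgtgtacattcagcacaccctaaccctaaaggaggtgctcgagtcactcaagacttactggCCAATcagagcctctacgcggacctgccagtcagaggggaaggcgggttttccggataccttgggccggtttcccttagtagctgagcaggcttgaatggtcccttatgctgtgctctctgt
Zfp811: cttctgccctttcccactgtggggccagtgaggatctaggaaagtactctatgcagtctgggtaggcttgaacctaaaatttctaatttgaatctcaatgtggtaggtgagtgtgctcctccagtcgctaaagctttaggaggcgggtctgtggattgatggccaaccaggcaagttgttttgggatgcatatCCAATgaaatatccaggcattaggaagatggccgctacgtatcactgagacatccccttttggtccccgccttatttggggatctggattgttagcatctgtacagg
Akr1e1: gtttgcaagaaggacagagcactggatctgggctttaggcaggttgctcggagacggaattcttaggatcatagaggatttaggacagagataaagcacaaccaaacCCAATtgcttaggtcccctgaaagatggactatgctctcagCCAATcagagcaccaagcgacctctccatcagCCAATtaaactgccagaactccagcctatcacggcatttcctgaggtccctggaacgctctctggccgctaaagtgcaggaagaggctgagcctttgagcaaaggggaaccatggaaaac
Ccdc8: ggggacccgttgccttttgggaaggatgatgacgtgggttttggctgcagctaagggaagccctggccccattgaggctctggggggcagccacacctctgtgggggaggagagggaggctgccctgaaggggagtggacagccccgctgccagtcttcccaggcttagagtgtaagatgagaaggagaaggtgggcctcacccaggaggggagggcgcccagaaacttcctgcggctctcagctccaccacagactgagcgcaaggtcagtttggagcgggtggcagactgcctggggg
Acy3: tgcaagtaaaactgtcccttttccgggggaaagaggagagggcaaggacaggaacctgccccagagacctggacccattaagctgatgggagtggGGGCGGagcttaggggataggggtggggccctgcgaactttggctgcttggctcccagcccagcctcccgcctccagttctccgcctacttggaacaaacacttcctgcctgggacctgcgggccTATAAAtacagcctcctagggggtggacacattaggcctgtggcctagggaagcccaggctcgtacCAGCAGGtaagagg

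The 3 promoters of lower peaks each hold the letters CCAAT, once at position 179 in Zfp932, once at 194 in Zfp811, and at 108, 149 and 181 in Akr1e1, counted from the first printed base. Acy3 holds a GGGCGG match at 96, a TATAAA match at 221 and a CAGCAGG match at 287, and Ccdc8 holds none of the 12 motifs. CCAAT is common: 38.0% of the promoters of all 27025 genes, 1 entry a gene, hold it on either strand, against 41.4% of the 295 with a lower peak and 46.4% of the 112 with a higher peak. GGGCGG was in 61.9% of promoters with a tested peak, 53.9% of those with a lower peak and 47.3% of those with a higher peak. The octamer ATGCAAAT was in 1.65%, 4.07% and 1.79% of these sets. The ratio of observed to expected CpG dinucleotides had a median of 0.733 over promoters with a tested peak, 0.524 where the peak was lower and 0.535 where it was higher, and was 0.342 in Zfp932, 0.289 in Zfp811, 0.312 in Akr1e1, 0.243 in Ccdc8 and 0.258 in Acy3. These shares describe the reference sequence of C57BL/6J only.

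Peaks were called where edgeR's quasi-likelihood test gave a Benjamini-Hochberg adjusted p under 0.05. Of the tested peaks, 5073 were lower in PWK (3.68% of all tested) and 1957 were higher (1.42%), 5.11% in all, so 72.2% of the calls were lower. Which libraries the peak set was called in is not given in the sources used here, and its part in this excess was not tested. Accessibility is given as CPM, read counts scaled to each library's size. The median log2 change was -2.57 over the lower and 2.45 over the higher peaks, with peaks at 0 counts in a whole group held at the change that a floor of 3 counts per library allows, and it was 0.04 over all tested peaks. At the same bound, 3601 lower and 1273 higher peaks differed at least 4-fold, and 776 and 278 at least 16-fold. Every B6 library lay above both PWK libraries at 14.3% of tested peaks, and every PWK library above all B6 libraries at 12.0%; 5026 of the lower and 1956 of the higher calls were without overlap. With 2 against 4 libraries an exact permutation test of 1 peak cannot go below a two-sided p of 0.133, so the calls rest on the spread shared across peaks. Of the calls, 4894 lower and 1877 higher ones were at least 2-fold, and a peak that was not called is not shown to be alike in both strains. The counts fell to 1001 higher and 2823 lower without B6 library 1, to 1004 and 2628 without B6 library 4, and the lower calls to 2944 without the unnumbered PWK library; 2553 peaks (596 higher, 1957 lower) were called in all 6 fits that left out 1 library and in the full one.

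**Figure D1:**
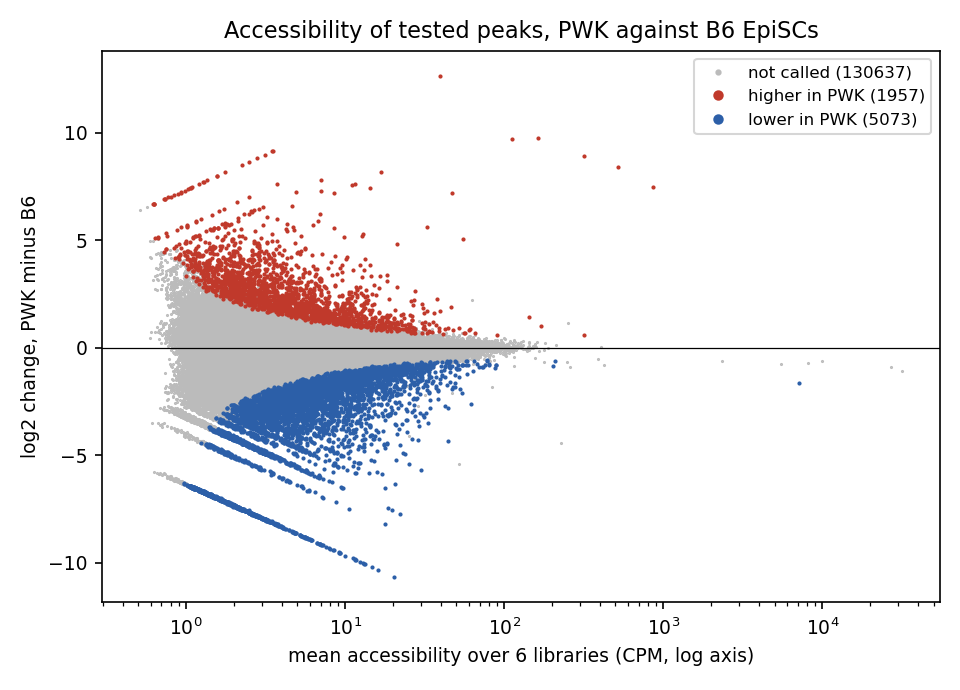
Log2 change in accessibility (PWK minus B6, edgeR fit) against mean CPM (log axis) for the 137667 tested peaks; blue points are the 5073 lower calls, red the 1957 higher calls, grey the rest. Straight diagonal lines are peaks with 0 or few counts in a whole group, whose fitted change depends on the prior count; the lower calls outnumber the higher ones over most of the range.

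Library totals ran from 4256551 to 9571127 counts in B6 and were 5697526 and 8377927 in PWK. Over tested peaks, log CPM correlated at 0.763 to 0.881 between B6 libraries, at 0.759 between the 2 PWK libraries and at 0.611 to 0.728 across strains, and the first principal component (40.1% of variance) set the strains apart. Among transcripts, the 8 EpiSC markers summed to 3320 to 4955 CPM in B6 and 4130 to 4507 CPM in PWK, and none was called. The 12 feeder fibroblast markers, collagens among them, summed to 97.0 to 2922 CPM in B6 and 2528 to 3426 CPM in PWK. No marker was at 0 in all libraries of a group, and 1 of 12 was called (Twist1, lower). The others all had higher fitted levels in PWK, with log2 changes from 0.76 (Thy1) to 1.79 (Lum), and were not called. The strains did not overlap at Fbn1 and Mmp2. Over the 19 genes of the wider feeder list the median transcript log2 change was 1.23. The 4 neuroectoderm markers summed to 9.58 to 67.1 CPM in B6 and 0.855 to 1.47 CPM in PWK, and the 5 definitive endoderm markers to 25.4 to 276 CPM and 57.1 to 121 CPM. Feeder promoters with a tested peak numbered 8 of 19, with 0 called and a median log2 change of -0.07; the part of feeder cells in the accessibility calls was not tested. Fewer cells of a type and less signal per cell cannot be told apart in such bulk libraries.

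Distal peaks differed more often than promoter peaks. Within 500 bp of a RefSeq gene start, 1.87% of 17472 peaks were lower in PWK and 0.761% higher, while at 2000 to 10000 bp from a start 4.19% of 23150 were lower and 1.34% higher. Beyond 50000 bp the shares were 3.93% and 1.65% of 36801 peaks. Promoter peaks are the more accessible ones (median 8.82 CPM, against 3.13 CPM beyond 2000 bp). In the highest quintile of peaks by CPM, 2.05% of 8982 promoter peaks (median 19.4 CPM) and 6.95% of 15806 distal peaks (median 12.9 CPM) were lower. In the lowest quintile the shares were 0.945% of 1058 and 1.95% of 24473. The share of distal peaks called in either direction was 2.11 times that of promoter peaks, and 1.99 to 2.84 times over the alternative fits. Distal peaks outside gene bodies were called more often (4.69% lower, 1.76% higher of 46563) than those inside them (3.51% and 1.34% of 60855).

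**Figure D2:**
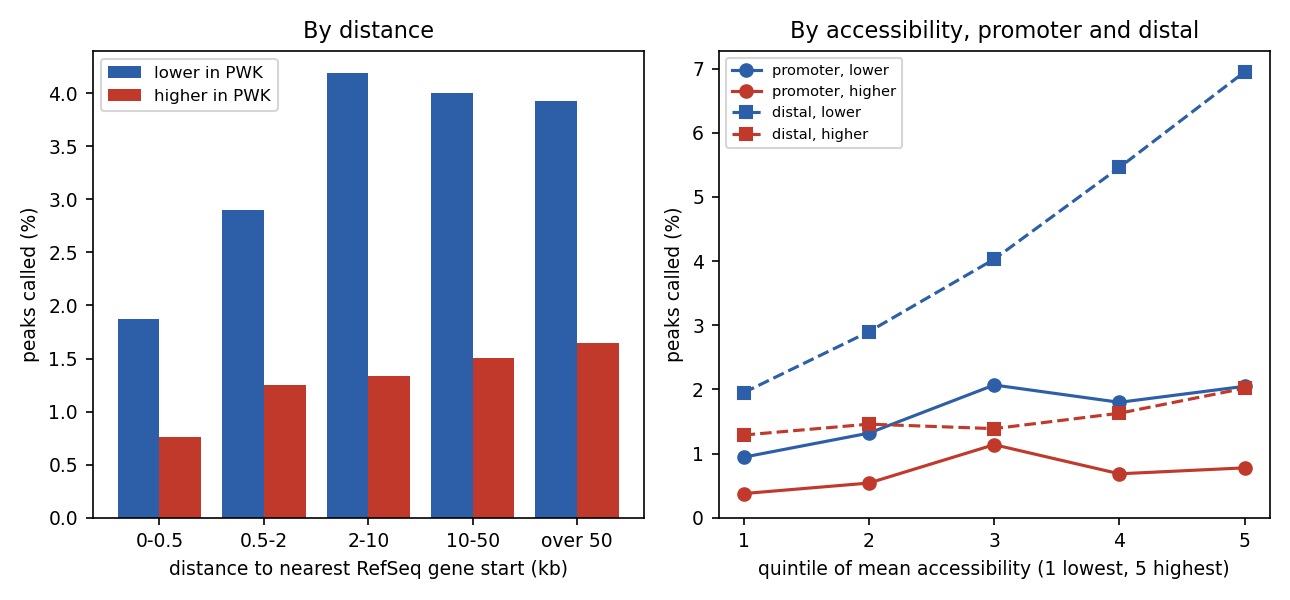
Left, percent of tested peaks called lower (blue) and higher (red) in PWK by distance to the nearest RefSeq start (kb); right, the same percent within quintiles of mean accessibility for promoter peaks (within 500 bp, solid lines) and distal peaks (over 2000 bp, dashed lines). Blue bars stand above red ones in every class, and the dashed blue line climbs from 1.95% to 6.95% while the solid blue one stays between 0.945% and 2.07%.

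Over the autosomes and X, from 2.44% (X) to 4.28% (chromosome 17) of peaks were lower and from 0.95% (X) to 1.92% (chromosome 16) higher. Peaks over RefSeq pseudogenes were called more often than others, with 6.57% of 929 lower and 3.77% higher, against 3.67% and 1.41% of the remaining 136738.

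A group of peaks had almost no reads in 1 strain. In PWK, 2956 tested peaks held 3 counts or fewer in both libraries, and 1521 of them were called lower, 30.0% of all lower calls; 924 held 0 counts in both. In B6, 372 peaks held 3 counts or fewer in all 4 libraries, 233 of them called higher. A limit on all 4 B6 libraries is stricter than the same limit on both PWK libraries. The numbers 2956 and 372 are therefore not a like comparison of the strains. Peaks at this floor in 1 strain passed the count filter on their reads in the other. How far that selection bears on their calls was not tested. The DBA library, which did not enter the fit behind these calls, lay nearer to the B6 mean than to the PWK mean at 4597 of the 5073 lower peaks (90.6%) and at 1700 of the 1957 higher ones (86.9%). These peaks were chosen by the difference between PWK and B6, and the same share over peaks not called is not given here. At 55 lower peaks with 0 counts in both PWK libraries the DBA library held 0 as well.

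Among lower peaks of at least median accessibility, the 6 with the largest fitted changes were all at 0 in PWK. Fitted values at 0 counts depend on the prior count, so their order against other peaks is not a ranking of folds. A peak at chr9:4117338-4117573, 21173 bp from the start of Gm45957, held 29.7, 32.1, 29.7 and 30.6 CPM in B6 libraries 1, 4, 44 and 51 and 0 in both PWK libraries, at least 69.3-fold lower against a floor of 3 counts per library (edgeR adjusted p = 2.15e-07). A peak inside Cast, the gene of the calpain inhibitor calpastatin, at chr13:74787759-74788109 held 25.0, 21.5, 18.0 and 24.0 CPM in B6 and 0 in PWK, at least 50.1-fold lower (adjusted p = 1.32e-06). The DBA library held 38.3 and 23.4 CPM at these peaks, above and within the B6 range. Peaks at chr7:11500946-11501305, inside Ptprr at chr10:116079494-116079695, at chr2:16344600-16344907 and at chr4:21455446-21455716 behaved likewise, with B6 means of 19.4 to 24.3 CPM and bounds of 44.0-fold to 55.1-fold. A peak inside Atg5, an autophagy gene, at chr10:44315335-44315667 held 24.6 to 35.9 CPM in B6 and 0.54 and 0.228 CPM in PWK, a ratio of summed counts of 86.1 (95% counting interval 36.7 to 266). One at chr17:91916410-91916627 held 26.7 to 43.5 CPM in B6 and 0 and 0.228 CPM in PWK, a ratio of 242 (interval 66.7 to 1999).

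Peaks named by the same fitted values in the other direction included some of very high count in PWK. Inside Myo3a, which codes for a myosin of sensory hair cells, lay a peak at chr2:22587333-22588738. It held 1903 and 1192 CPM in the PWK libraries AC698 and unnumbered and 4.02 to 5.56 CPM in B6. The ratio was 327 (interval 272 to 395, adjusted p = 5.2e-12). The Myo3a promoter peak (log2 change 0.877) and transcript (4.589) were also called higher in PWK. A peak at chr13:85126858-85127513 held 1146 and 746 CPM against 1.03 to 2.98 CPM, one at chr10:96077527-96077888 held 596 and 380 CPM against 0.31 to 1.03 CPM, and one at chr12:97061431-97061791 held 411 and 257 CPM against 0 to 1.03 CPM. A peak at chr4:80003389-80003540 held 142 and 96.8 CPM in PWK and 0 in all 4 B6 libraries, at least 235-fold higher. On chromosome 18, a peak inside the gene models Gm37013, Gm38666 and Gm38667 held 12.1 and 9.11 CPM in PWK and 0 in B6, at least 20.9-fold higher. Peaks at chr11:44387190-44387262 and chr14:42543401-42543709 held no more than 3 counts in any B6 library and 41.4 and 26.9 CPM, and 38.2 and 27.8 CPM, in PWK. Over the 12 peaks called higher with a PWK mean above 100 CPM, the summed level was 8832 and 5773 CPM in PWK, 527 to 660 CPM in B6 and 517 CPM in DBA. Mitochondrial peaks took 5.6% and 4.22% of counts in PWK and 7.07% to 13.5% in B6; 2 of the 6 tested mitochondrial peaks were called lower in PWK, and the other 4 were not called (adjusted p from 0.228 to 0.409). The part of mitochondrial reads in these results was not tested.

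Among lower promoter peaks without overlap between the strains, gene models left out, 6 were named by smallest p. Zfp932, a Krüppel-type zinc finger gene, held 30.0, 28.8, 35.6 and 37.1 CPM in B6 and 2.34 and 3.19 CPM in PWK at chr5:109996377-109996649, a log2 change of -3.53 (SE 0.27, adjusted p = 3.84e-06). Zfp811, of the same family, held 38.2 to 55.7 CPM in B6 and 4.14 and 5.24 CPM in PWK, a change of -3.22. Akr1e1, an aldo-keto reductase gene, held 69.0, 69.6, 68.2 and 73.5 CPM in B6 and 18.7 and 18.3 CPM in PWK (log2 change -1.92, SE 0.17, adjusted p = 1.37e-05). Pklr, the liver and red cell pyruvate kinase gene, held 20.1 to 23.3 CPM in B6 and 1.62 and 0.455 CPM in PWK, and Cfap161 and Selenov had B6 means of 20.6 and 20.0 CPM and PWK means of 1.67 and 2.04 CPM. The absence of overlap between the strains at these 6 was a condition of their naming.

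Higher promoter peaks were fewer. The 6 named by smallest p in the same way had log2 changes of 1.38 to 3.32, against -1.92 to -4.47 for the 6 lower ones. Gene models, left out of this naming, included Gm2974 (log2 change 3.69) and Gm14403 (2.82). Both had a smaller p than any of these 6 higher peaks. Ccdc8, a gene of the 3M complex of cytoskeletal and cell cycle control, held 11.0 to 22.1 CPM in B6 and 68.8 and 50.2 CPM in PWK at chr7:16993637-16993992, a log2 change of 1.85 (SE 0.24, adjusted p = 0.000363). Slc37a1, a sugar phosphate transporter gene, held 12.8 to 13.7 CPM in B6 and 41.6 and 27.4 CPM in PWK. Acy3, an aminoacylase gene, held 8.43 to 16.2 CPM in B6 and 49.7 and 28.3 CPM in PWK. Grin1os, Mab21l4 and G3bp2 had B6 means of 1.26, 5.03 and 0.785 CPM and PWK means of 10.6, 19.4 and 8.07 CPM. The DBA library lay between the strains at Ccdc8 (37.9 CPM) and at Slc37a1 (18.7 CPM), and within the B6 range at Acy3 (11.4 CPM).

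**Figure D3:**
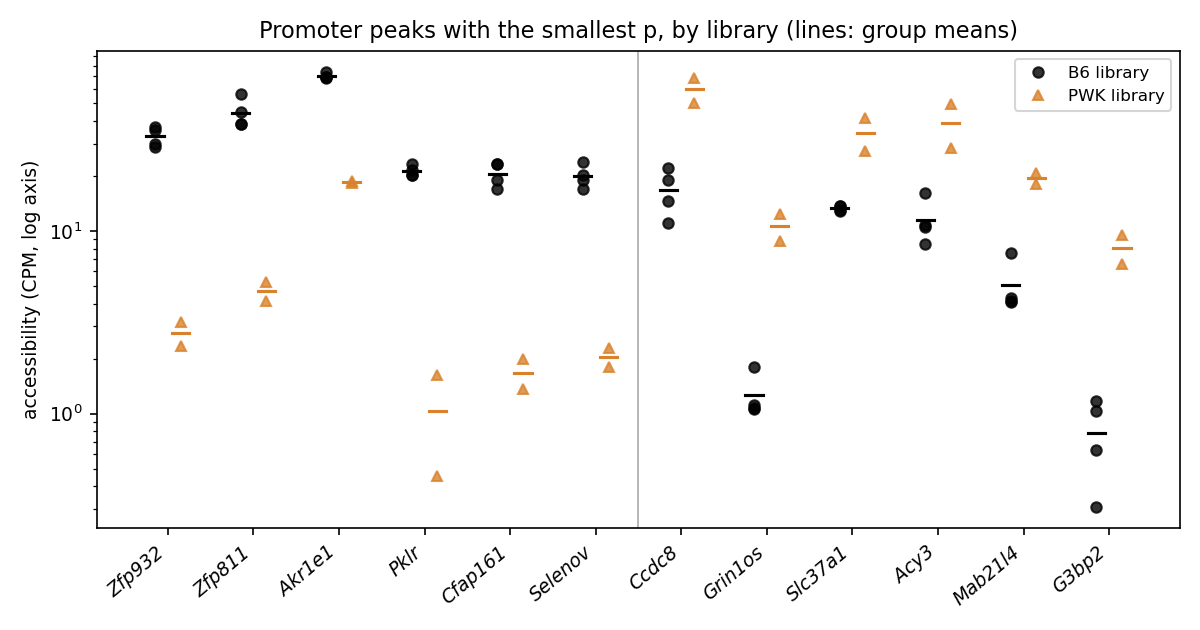
Accessibility (CPM, log axis) of the 12 named promoter peaks in each B6 library (black circles, n = 4) and PWK library (orange triangles, n = 2), with lines at group means. The 6 genes on the left are lower in PWK and the 6 on the right higher. All 12 were picked among peaks without overlap between the strains, with gene models left out.

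Most promoters of the pluripotency genes were not called. At Pou5f1, a pluripotency factor gene, the promoter peak held 4.45 to 6.92 CPM in B6 and 5.58 and 4.78 CPM in PWK; at Sox2, which codes for its partner, 9.38 to 15.9 CPM and 12.2 and 8.65 CPM; at Nanog 6.92 to 17.3 CPM and 9.0 and 9.11 CPM; and at Otx2, a factor of the primed state, 1.86 to 3.33 CPM and 2.7 and 2.73 CPM. Fgf5, Dnmt3b, Lin28a, Klf4 and T were not called either, with Dnmt3b, a de novo DNA methyltransferase gene, at a log2 change of -1.32 (SE 0.45, adjusted p = 0.119). The strains did not overlap at Dnmt3b and Fgf5, both lower in PWK, as at 14.3% of all tested peaks. Nodal, the ligand whose signalling keeps EpiSCs primed, was the called one among 18 measured promoters of the primed and general pluripotency list (5.56%, near the 2.96% of all promoters called). Its peak at chr10:61418121-61418323 held 14.0, 11.1, 13.3 and 12.2 CPM in B6 and 5.76 and 3.19 CPM in PWK (log2 change -1.52, SE 0.33, adjusted p = 0.013). A second peak over the Nodal start, at chr10:61417818-61418057, held 11.0 to 14.9 CPM in B6 and 3.6 and 3.42 CPM in PWK. Another peak 4.28 kb upstream held 0.425 to 1.91 CPM in B6 and 4.68 and 6.26 CPM in PWK and was called higher. The call of the first peak was lost in 2 of the 15 alternative fits, without the unnumbered PWK library (log2 change -1.13, adjusted p = 0.146) and without B6 library 1 (-1.47, adjusted p = 0.0576). Nodal transcripts held 47.2 to 103 CPM in B6 and 78.8 to 109 CPM in PWK and were not called (adjusted p = 0.203).

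Around these genes, windows of 50 kb on either side of the start, chosen after the promoter values were seen, held 297 tested peaks of 19 genes, with 4 higher (1.35%) and 9 lower (3.03%), near the 1.42% and 3.68% of all peaks. Lower peaks lay 21.5 and 41.6 kb upstream of Pou5f1, both nearest to the start of H2-Q10, 15655 and 4174 bp away; the first held 10.0 to 16.7 CPM in B6 and 0.54 and 0.342 CPM in PWK. Near Dnmt3b, peaks 21.0 and 38.5 kb upstream, both nearest to the start of Commd7, were lower, with B6 means of 5.96 and 8.45 CPM and PWK means of 1.36 and 2.46 CPM. Near Nanog, a peak 36.0 kb downstream, inside Slc2a3, held 4.13 to 7.12 CPM in B6 and 15.5 and 14.3 CPM in PWK. Another, 13.3 kb upstream and nearest to the Nanog start, held 0.513 to 2.54 CPM in B6 and 6.66 and 6.6 CPM in PWK. It was called higher too (edgeR adjusted p = 0.047). The windows of 12 of the 19 genes, Sox2, Otx2 and Fgf5 among them, held no called peak.

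Olig1, a neural transcription factor gene, was the called one of the 4 neuroectoderm markers as a transcript: it held 3.45 to 47.4 CPM in B6 and 0 to 0.24 CPM in PWK (edgeR adjusted p = 0.00244). Its start was accessible in both strains. The peak there, at chr16:91269561-91269777, held 21.8, 22.3, 14.9 and 24.9 CPM in B6 and 18.2 and 10.6 CPM in PWK, which overlap, and was not called (log2 change -0.57, SE 0.27, adjusted p = 0.304). Of 13 tested peaks within 50 kb of the gene, also looked up after its transcript values were seen, 1 was called: a peak at chr16:91314147-91314477, nearest to the start of Ifnar2, held 19.2 to 27.9 CPM in B6 and 7.92 and 9.11 CPM in PWK.

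Of 13751 genes with a tested promoter peak, 295 had a lower one (2.15%) and 112 a higher one (0.814%), with a median log2 change of -0.04 over all of them. The zinc finger genes named Zfp, many of them KRAB repressors of transposable elements, had 16 lower and 2 higher of 288 measured. Zfp605 held 42.1 to 51.8 CPM in B6 and 1.08 and 6.83 CPM in PWK (log2 change -3.48), and Zfp972 11.8 to 24.6 CPM and 2.16 and 0.911 CPM. The others that fell had log2 changes of -0.98 to -4.31. The last of these was Zfp977 (1.54 to 4.79 CPM in B6, 0 and 0.228 CPM in PWK), whose call was lost without B6 library 1 or 4 (adjusted p = 0.0665 and 0.11). Zfp119b and Zfp935 rose by 0.85 and 0.76. The calls of both higher genes were lost without PWK library AC698 (adjusted p = 0.0978 for Zfp119b and 0.197 for Zfp935), and that of Zfp935 also without B6 library 1 (adjusted p = 0.0792). Members of this family can be similar in sequence, and how far that affected the counting of any one of them was not tested. In the other lists few or no members passed: 0 of 57 ribosomal protein, 0 of 31 proteasome and 0 of 6 interferon-inducible GTPase promoters, and 0 of 6 naive pluripotency, 0 of 7 definitive endoderm, 0 of 6 streak and mesoderm, 0 of 7 neuroectoderm, 0 of 7 Wnt target, 0 of 8 Fgf and Nodal signalling and 0 of 18 imprinted genes. Single members were lower in the MHC genes (1 of 17, H2-T22), the olfactory receptors (1 of 11, Olfr368), the Hox genes (1 of 14, Hoxd11) and the oxidative phosphorylation genes (1 of 79, Ndufaf4). H2-T22, a nonclassical MHC gene, held 14.9 to 20.0 CPM in B6 but 0.36 and 6.26 CPM in the 2 PWK libraries, and its call was lost in 6 of the 14 alternative fits that tested it, among them those without B6 library 1, 4, 44 or 51 (adjusted p = 0.0791, 0.0832, 0.0923 and 0.0596). The Hoxd11 call was lost in 6 of 15, among them those without the unnumbered PWK library (adjusted p = 0.309) and those without B6 library 1, 4 or 44 (adjusted p = 0.139, 0.0821 and 0.0938). The Ndufaf4 call was lost in 7 of 15 alternative fits: with total library size (adjusted p = 0.0735), loess offsets (0.0571) or a minimum of 10 counts per library (0.0757), without PWK library AC698 (adjusted p = 0.168) and without B6 library 1, 4 or 44 (adjusted p = 0.112, 0.155 and 0.0754). Olfr368 held 2.48 to 5.25 CPM in B6 and 0 in PWK, at least 8.31-fold lower. None of the 3 vomeronasal and 2 Klr promoters measured was called; protocadherin and Hist genes and ribosomal protein pseudogenes had no measured promoter here.

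Called peaks also lay side by side. Runs of at least 5 consecutive tested peaks called in 1 direction, no more than 100000 bp apart, numbered 3 lower and 3 higher, and runs of at least 3 numbered 61 and 20. On chromosome 7, 7 peaks over 12.8 kb at Gm39066 (chr7:108184429-108197249) summed to 38.4 to 90.4 CPM in B6 and 0.54 and 0.228 CPM in PWK. In the MHC region of chromosome 17, 7 peaks over 23.9 kb at Gm8909 (chr17:36154369-36178290) summed to 77.7 to 93.5 CPM in B6 and 1.8 and 0.683 CPM in PWK. At Vmn2r26, a vomeronasal pheromone receptor gene, 6 peaks over 117 kb (chr6:123978214-124095571) summed to 30.0 to 46.4 CPM and to 1.44 and 1.37 CPM. The DBA library held 56.2, 111 and 41.4 CPM at these 3 runs, within the B6 range at Gm39066 and Vmn2r26 and above it at Gm8909. Another 14 lower runs held 4 peaks each; the 2 of them with the largest median fitted change lay at the Vmn1r74 and Vmn1r75 receptor genes and at the Apol10b and Apol11b apolipoprotein genes.

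Higher runs lay inside genes and in a zinc finger cluster. Within Crebbp, which codes for a histone acetyltransferase, 6 peaks over 9.56 kb (chr16:4119121-4128677) summed to 52.9 and 64.9 CPM in PWK and 0.619 to 2.23 CPM in B6, while Crebbp transcripts held 32.6 to 46.6 CPM in B6 and 45.1 to 53.8 CPM in PWK (adjusted p = 0.117). Across Ubash3a and Rsph1, 5 peaks over 44.6 kb (chr17:31220763-31265336) summed to 191 and 131 CPM in PWK and 39.1 to 65.7 CPM in B6, and Ubash3a, a T cell receptor signalling regulator, was also higher as a transcript (1.46 to 2.37 CPM in PWK, 0 to 0.169 CPM in B6, adjusted p = 0.00391). Rsph1 transcripts were not called (log2 change 1.02, adjusted p = 0.155). The higher Slc37a1 promoter peak given above lies just beyond this run. At the Crebbp run the nearest start was that of Trap1, whose transcript was lower in PWK (log2 change -0.29, adjusted p = 0.0213). Near Gm14407, Gm14401 and Gm14411 on chromosome 2, 5 peaks (chr2:177073958-177109690) summed to 173 and 105 CPM in PWK and 11.0 to 36.2 CPM in B6. With 250 kb on either side, 15 of the 23 tested peaks of that locus were higher. The transcripts of Gm14401, Gm14411 and the neighbouring Gm14412 were higher too, Gm14412 with 27.0 to 33.3 CPM in PWK and 1.56 to 6.88 CPM in B6. At a higher run of 4 peaks in the same part of the chromosome, the transcripts of Gm14322 (5.06 to 6.75 CPM in PWK, 0.0742 to 2.6 CPM in B6, adjusted p = 0.0692) and Gm14325 (log2 change -0.08, adjusted p = 0.88) were not called. Zfp972 in the same part of chromosome 2 went the other way, as given above.

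**Figure D4:**
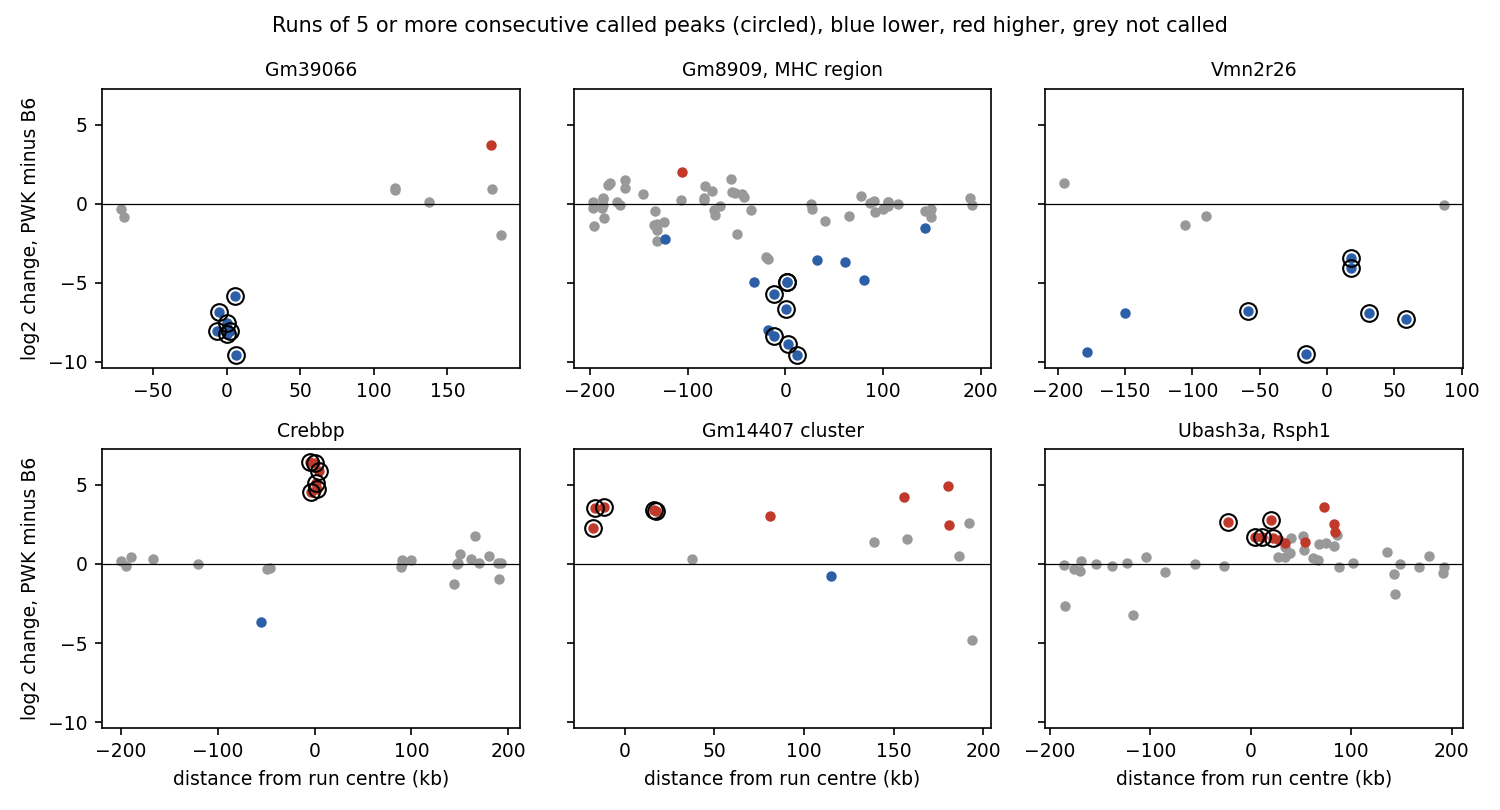
Log2 change (PWK minus B6) of tested peaks against distance from the centre of each run (kb), for the 6 runs of 5 or more called peaks; circles mark the run, blue is lower, red higher and grey not called. The 3 upper panels are lower runs and the 3 lower panels higher runs, and every panel holds called peaks outside the circles. Values for peaks at 0 counts in a whole group depend on the prior count.

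Transcripts gave a readout the peak calls did not use. By RNA-seq, 1479 of 14622 genes were higher in PWK (10.1%) and 1693 lower (11.6%). Of 9731 genes with both a promoter peak and a tested transcript, 12.1% had a lower and 8.22% a higher transcript. Among the 164 of them with a lower promoter peak, 63 (38.4%) had a lower transcript and 9 (5.49%) a higher one; among the 64 with a higher peak, 28 (43.8%) had a higher transcript and 1 (1.56%) a lower one. Of the 101 genes called in both assays, 91 moved the same way (90.1%, 95% Clopper-Pearson interval 82.5% to 95.1%), and 127 genes with a called promoter peak had no called transcript. Across all 9731 genes, called or not, the rank correlation of promoter peak and transcript change was only 0.0956. Both assays were aligned to the same build. Genes are not independent replicates, though the interval treats them as such. Distal peaks showed less: 18.1% of 1302 genes nearest to a lower distal peak had a lower transcript, against 11.7% of 8514 genes nearest to one not called, and 14.9% of 558 nearest to a higher one had a higher transcript, against 8.96%.

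Named genes showed both patterns. Catsperg1, a sperm calcium channel subunit gene, held 13.1 to 27.1 CPM in B6 and 1.08 and 1.14 CPM in PWK at its promoter peak, and 1.64 to 6.05 CPM and 0.0678 to 0.413 CPM as a transcript. Tmem40 held 11.3 to 16.9 CPM and 1.44 and 0.228 CPM at its promoter, and its transcript was lower as well (log2 change -1.56, adjusted p = 0.0337). These were named by the promoter peak's change among genes lower in both assays, as were D830030K20Rik, 1700093K21Rik and Gm8909. The size of the transcript's change did not enter that order. The transcript's call, its direction and its lack of overlap between the strains were conditions of the naming. Akr1e1 was lower in both, with 17.5 to 27.6 CPM of transcript in B6 and 3.8 to 5.33 CPM in PWK, and so were Zfp605 (11.9 to 15.8 CPM against 0.36 to 0.882 CPM) and Ndufaf4, a complex I assembly factor gene (45.2 to 68.2 CPM against 15.8 to 23.5 CPM). Of the 16 lower Zfp genes, 7 had a lower transcript and 2 a higher one. Among the lower promoters named by smallest p, Zfp811 also had a lower transcript (log2 change -1.63, adjusted p = 0.0179). Transcripts of Zfp932, Cfap161 and Selenov were not called (adjusted p = 0.0677, 0.118 and 0.0992).

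Rasef, a Rab-like GTPase gene, held 0.31 to 1.54 CPM in B6 and 5.58 and 5.12 CPM in PWK at its promoter, and 0 to 0.609 CPM and 6.72 to 8.58 CPM as a transcript. Gm2974, Gm14403, BC035044 and Gm4767 were named with it, by the promoter peak's change among genes higher in both assays. The Rasef peak lost its call without B6 library 4 (adjusted p = 0.0578), and the Gm4767 peak without either PWK library (adjusted p = 0.0608 without the unnumbered one and 0.0658 without AC698). The BC035044 peak lost its call without any 1 of 5 libraries, B6 library 4 being the exception (adjusted p from 0.0515 without B6 library 1 to 0.114 without AC698). Ccdc8 transcripts held 3.04 to 21.3 CPM in B6 and 31.9 to 39.4 CPM in PWK (adjusted p = 0.0306). Slc37a1 transcripts were not called (log2 change 0.41, adjusted p = 0.61). Opposite directions were seen at Zfp119a, with 29.9 to 43.4 CPM of promoter accessibility in B6 and 6.3 and 7.74 CPM in PWK but 3.79 to 5.66 CPM of transcript in B6 and 7.24 to 7.94 CPM in PWK, and at Gm2897 and Zfp984. The gene with a higher peak and a lower transcript was Pot1a, which codes for a telomere-binding protein: 18.0 to 28.3 CPM in B6 and 49.3 and 40.9 CPM in PWK at the promoter, and 38.9 to 57.3 CPM and 29.5 to 33.3 CPM as a transcript. The Pot1a peak lost its call without AC698 (adjusted p = 0.151) and without B6 library 1 or 4 (adjusted p = 0.0754 and 0.0524), and the Zfp984 peak without AC698 (adjusted p = 0.125) and without B6 library 1, 4 or 51 (adjusted p = 0.113, 0.13 and 0.0905). At G3bp2, a stress granule gene, the higher promoter peak was 103 bp wide, lay 277 bp from the start and held only 2 to 11 counts per B6 library. Its transcript held 883 to 1114 CPM in B6 against 1009 to 1094 CPM in PWK and was not called (adjusted p = 0.322).

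**Figure D5:**
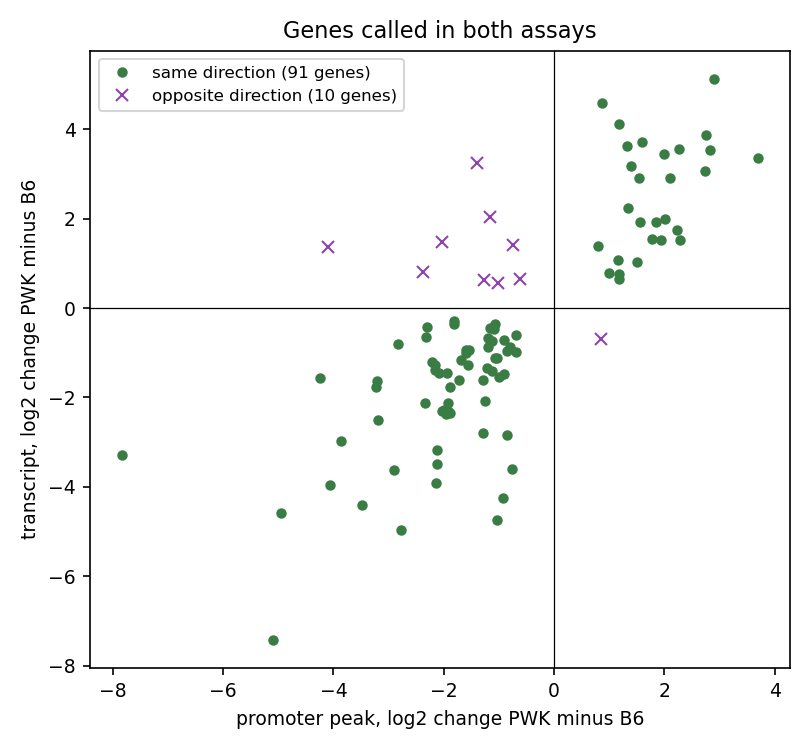
Log2 change of the transcript against log2 change of the promoter peak (PWK minus B6 on both axes) for the 101 genes called in both assays. Green circles are the 91 genes that moved the same way and purple crosses the 10 that did not; fitted changes of genes at 0 counts in a whole group depend on the prior count.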

How the data were processed

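ATAC-seq read counts per peak and RNA-seq read counts per gene were used as the authors deposited them. Per the submitters' processing notes, ATAC-seq reads were handled with fastp, Bowtie2, MACS2 and featureCounts and RNA-seq reads with Salmon and featureCounts, on mm10, with DESeq2 also named. Which libraries the peak set was called in, and whether peak starts count from 0 or 1, are not given in the sources used here. Of 24 columns of the peak table, 17 match no sample of this series and were not used. One PWK column of each assay matched its group's label but no sample number.

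Counts were filtered with filterByExpr, scaled by TMM and tested with edgeR 4.0.16 (quasi-likelihood, robust; R 4.3.3), with Benjamini-Hochberg adjusted p under 0.05 as the call; values are TMM-scaled CPM of tested features. Promoter peaks lay within 500 bp of a RefSeq GRCm38.p6 start, and a gene's promoter peak was the most accessible of these. The 4667 tested peaks of chromosomes 18 and M had no start to be placed against. Fits were tested on simulated counts. Nothing in the labels says that replicates came from separate animals, and p-values then measure only the spread between these samples. Count intervals and floors (3 counts) cover counting error only.

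Peaks were named by largest change, smallest p at promoters, longest runs, change in both assays, marker genes, list membership, and counts at the floor in 1 strain. Naming by largest change, smallest p or change in both assays took only peaks without overlap between the strains. For change in both assays, the transcript also had to be called and without overlap. Naming by smallest p also left out gene model names such as Gm or Rik. The genes, lists and tests were chosen with earlier results of these data known. Alternatives were RLE and total-count scaling, loess offsets, DESeq2 1.42.0, other count filters, a fold of at least 2, no robust setting, autosomes only, the DBA library in the fit, other promoter distances and each library left out.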

Additional observations from a re-analysis of the deposited data

Results flagged for a closer look

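Of 61 named peaks, 3 had 1 B6 library far from the other 3 (the gap divided by the range over Dixon's 95% critical value); chance flags about 1 in 20 groups. At Grin1os, B6 library 44 held 1.8 CPM against 1.06 to 1.11 CPM in the others. At Mab21l4, B6 library 51 held 7.58 CPM against 4.1 to 4.29 CPM. At D830030K20Rik, B6 library 1 held 4.61 CPM against 4.02 to 4.1 CPM. Both PWK libraries lay outside the B6 range at all 3 peaks, which was a condition of their naming.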

How the results depend on the processing

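No paired analysis was possible because the PWK and B6 ATAC-seq groups share no replicate number. A minimum of 10 counts per library cut the calls to 667 higher and 1443 lower; of the 7030 calls, 4692 were not tested under that filter and 303 were tested and not called. Leaving out 1 library gave 1001 to 2027 higher and 2628 to 5418 lower peaks; where 1 PWK library was left, it was assumed to vary like the B6 ones. For genes, a fold of at least 2 gave 802 higher and 584 lower, and leaving out 1 library gave 823 to 2109 higher and 864 to 2010 lower, the smallest counts coming without 1 of the PWK libraries. The share of genes called in both assays that moved the same way ranged from 85.6% to 94.6% when 1 library was left out. Promoters taken as 2000 bp rather than 500 bp gave 3.11% called against 2.63%. All other settings kept the counts within 1.5 times. Among 746 pairs of a called named peak and a setting, 42 lost the call and 0 reversed. Of 135 pairs of a named peak that was not called, 4 moved by more than 1 SE, among them Lin28a, whose change went from -0.18 to 0.25 without the unnumbered PWK library. The lower share of the calls ran from 64.2% without the unnumbered PWK library to 79.9% without PWK library AC698. At this depth, peaks of few counts could be called only where the change was large.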

Other observations

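Peaks of the Y chromosome were called more often than others, 11 lower and 3 higher of 64 tested, with the Y taking 0.0964% to 0.156% of counts in B6 and 0.0671% and 0.0789% in PWK. Wider peaks were called more often: 6.34% of the widest quintile were lower and 2.04% higher, against 1.36% and 0.571% of the narrowest quintile, whose median width was 82 bp. At Hoxd11, a homeobox gene, the promoter peak was lower in PWK (9.9 and 6.15 CPM against 13.8 to 21.5 CPM in B6), with the call lost in 6 of 15 alternative fits (edgeR adjusted p from 0.0558 with total library size to 0.309 without the unnumbered PWK library), and its transcript held 0 to 0.736 CPM in B6 and 0.675 to 1.16 CPM in PWK, not called. Gm10499, beside the lower run of the MHC region, had a higher transcript in PWK (1.4 to 2.07 CPM against 0.232 to 0.541 CPM in B6, edgeR adjusted p = 0.00783).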
